A study of Rattus norvegicus with 25 samples.

Results

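Traumatic brain injury was modelled in rats by controlled cortical impact (CCI), in which a piston strikes the exposed cortex that lies over the hippocampus. Injury without a supplement was compared here: the 5 Vehicle-CCI libraries, from injured rats given vehicle, were set against the 5 Vehicle-sham libraries, from rats given vehicle and a sham procedure. These 10 of the 25 hippocampus libraries of the series were chosen by their labels, across all genes. The other 15 libraries came from injured rats given a thymus supplement, named TD-CCI (thymus), TCF-CCI (thymus cytosolic factor) and TNF-CCI (thymus nuclear factor), with 5 libraries each, and entered the fit to estimate the spread between libraries. All rats were male Sprague-Dawley animals aged 6 to 7 weeks, an outbred strain, and all groups but the sham controls carried the impact. No source used here states the vehicle, the depth of the impact, the time after it, the side of the brain or whether each library came from a separate rat. P-values therefore measure the spread between these libraries, which may in part be technical. Whole hippocampus was sequenced, so a fold change cannot tell apart more cells of a type from more RNA per cell, nor fewer cells from less RNA per cell.

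Impact over the hippocampus is known to draw a response from several cell types. Microglia, the resident phagocytes of the brain, divide, change shape and take up debris, and blood-borne macrophages may join them. Astrocytes become reactive and fill with intermediate filament protein, while pyramidal and granule neurons below the impact lose synapses or die.

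The labelled tissue was checked first. Markers of dentate granule cells (Prox1, C1ql2), of CA1 (Wfs1, Fibcd1) and CA2/CA3 (Bok) pyramidal neurons, of excitatory neurons (Slc17a7, Neurod6) and of interneurons (Gad1) had counts in 10 of 10 libraries. Microglial Csf1r, astrocytic Slc1a2 and endothelial Cldn5 were present in 10 of 10 as well. Totals ran from 31.7 to 33.6 M counts (M, 1e6) in Vehicle-CCI and from 27.3 to 33.7 M in Vehicle-sham. The mitochondrial ribosomal RNA share averaged 7.89 ± 1.46% of counts in Vehicle-CCI and 11.6 ± 9.62% in Vehicle-sham (SD, n = 5 each). This difference missed the threshold (exact two-sided permutation test, p = 0.452, where the smallest this design allows is 0.00794). Vehicle-sham 2 stood apart, with a share of 25.6% and the lowest TMM scaling factor of the 10 (0.645). It had a count on 632 of 1441 listed chemoreceptor genes. The Vehicle-CCI libraries had 146 to 311 such genes and the other sham libraries 127 to 327. Vehicle-sham 3 came next in share (17.3%) and in scaling factor (0.805). Its share was also above that of every Vehicle-CCI library, the highest of which was 9.89%. The part of that share in its levels was not tested. On principal components of the 10 libraries, component 1 (41.1% of the variance) parted Vehicle-sham 2 from the rest, and component 2 (21.1%) had Vehicle-CCI 2, 1 and 3 at its high end and Vehicle-CCI 4 and 5 within the range of the sham libraries. Whether RNA quality or a mix-up of labels had a part in Vehicle-sham 2 or Vehicle-CCI 4 was not tested, and group means and fold changes hold both unless said otherwise. The list medians and fold changes printed for genes at an unadjusted p under 0.05 are also given without either library where that moved them by over 1.5 times.

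No gene passed the test. Of 21064 genes tested, edgeR's quasi-likelihood test called 0 (0%) at an adjusted p under 0.05, and the smallest adjusted p, 0.132, was shared by 40 genes. At an unadjusted p under 0.05 there were 2669 genes (12.7%), of which 1402 (6.66%) were higher and 1267 (6.02%) lower in Vehicle-CCI. DESeq2 on the same counts called 247 genes (1.17%), 216 higher (1.03%) and 31 lower (0.147%), and limma voom called 0. Leaving out Vehicle-CCI 4 gave 368 edgeR calls (1.72%), 283 higher (1.33%) and 85 lower (0.398%). The authors' deposited table lists 70 genes at an adjusted p under 0.05, 66 higher (0.308%) and 4 lower (0.0186%), 0.326% of the genes it gives an adjusted p. All 70 were at an unadjusted p under 0.05 in edgeR here, and 63 of them (90% of theirs, 25.5% of those called here) were also called by DESeq2 here. Because the edgeR test called nothing, levels and fold changes are given without a verdict of change. A level is a TMM-scaled CPM value (of 1e6 counts), listed in the order of libraries 1 to 5 of each group, and fold changes are log2 values of Vehicle-CCI over Vehicle-sham with their standard error (SE).

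In 165 genes (0.783% of those tested) the 5 Vehicle-CCI and the 5 Vehicle-sham libraries did not overlap: 98 genes (0.465%) lay higher in every Vehicle-CCI library and 67 (0.318%) lower. Of these, 101 annotated genes had a mean of at least 1 CPM and an unadjusted p under 0.05, 57 of them higher and 44 lower. The 12 of largest fold change included several genes of myeloid cells. Clec12a, an inhibitory C-type lectin of myeloid cells (chromosome 4, 162798125 to 162816757; mRatBN7.2), had 8.63, 19.6, 3.45, 1.53 and 3.72 CPM in Vehicle-CCI 1 to 5, against 0.463, 1.25, 0.902, 0.652 and 0.884 CPM in Vehicle-sham 1 to 5. The log2 fold change came to 3.17 ± 0.67, at an adjusted p in edgeR of 0.132, with Vehicle-CCI 2 highest and Vehicle-CCI 4 closest to sham. S100a4, a calcium-binding protein of motile cells (chromosome 2, 176090951 to 176093258), had 175, 282, 72.9, 29.1 and 65.3 CPM in Vehicle-CCI, against 10.2, 21.6, 26.9, 16.95 and 10.3 CPM in Vehicle-sham, a log2 fold change of 2.86 ± 0.59. Vehicle-CCI 2 and 1 were highest and Vehicle-CCI 4 lowest also in Csf2rb, the shared signalling chain of the receptors for interleukin 3, interleukin 5 and GM-CSF, at 11.9, 18.6, 2.72, 2.57 and 4.42 CPM in Vehicle-CCI and 1.69, 1.25, 0.827, 1.11 and 2.06 CPM in Vehicle-sham. Cnr2, the cannabinoid receptor of immune cells, averaged 4.10 ± 2.89 CPM in Vehicle-CCI and 0.873 ± 0.330 CPM in Vehicle-sham (SD, n = 5 each). Unc93b1, which carries nucleic-acid-sensing Toll-like receptors out of the endoplasmic reticulum, had 28.03, 33.2, 8.79, 7.51 and 12.97 CPM in Vehicle-CCI, against 6.15, 5.07, 6.95, 5.44 and 6.04 CPM in Vehicle-sham. Adam33, Glipr2, Zmynd15, Myo7a, Tifab and the heparan sulfate 6-O-endosulfatase Sulf1 made up the 12, with log2 fold changes from 1.45 to 2.32. The 10 genes of smallest p all had a higher mean in Vehicle-CCI. Beside Clec12a, S100a4, Sulf1 and Cnr2 they were Rnaset2, a lysosomal ribonuclease, Catip, Scn7a, Tmem176a, Plekhg6 and the potassium channel Kcnk6. Scn7a, a sodium-sensing channel found in glia, had 44.01, 29.4, 16.4, 3.47 and 11.2 CPM in Vehicle-CCI, against 2.15, 2.73, 2.74, 2.28 and 3.71 CPM in Vehicle-sham, a log2 fold change of 2.94 ± 0.63. It overlapped sham in Vehicle-CCI 4 alone.

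**Figure D1:**
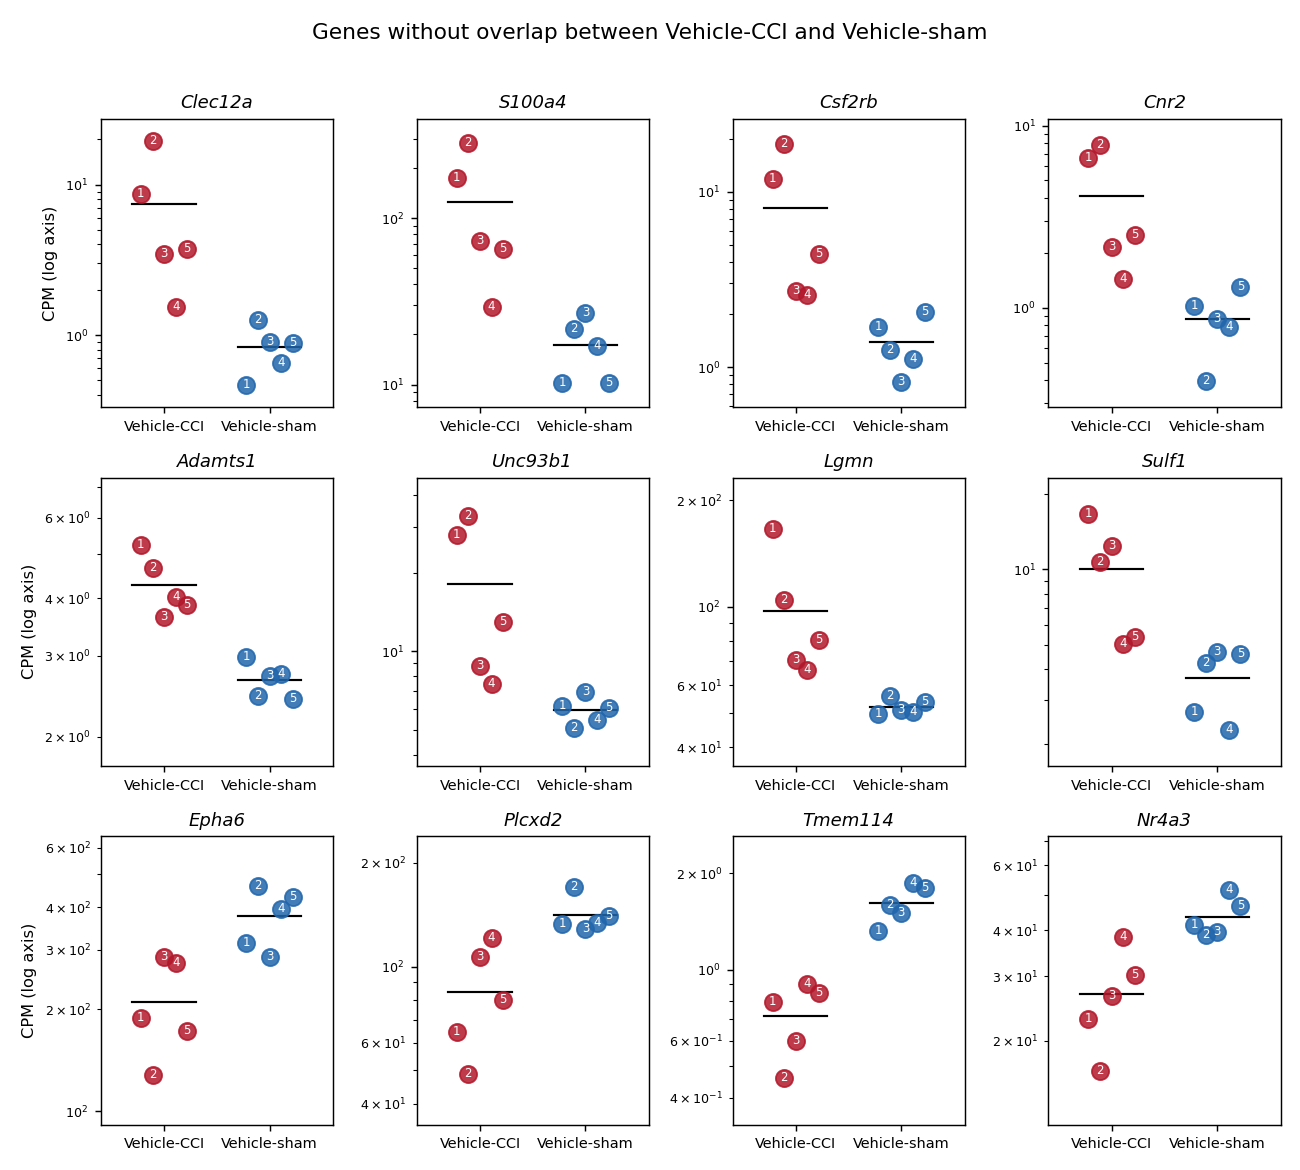
TMM-scaled CPM (log axis) of 8 genes that lay higher and 4 that lay lower in all 5 Vehicle-CCI libraries (left, red) than in all 5 Vehicle-sham libraries (right, blue). Digits are library numbers and bars are group means. Clec12a runs from 1.53 to 19.6 CPM in Vehicle-CCI and from 0.463 to 1.25 CPM in Vehicle-sham, and Vehicle-CCI 1 and 2 lie at the top of most higher genes.

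The list of 24 genes of activated microglia and phagocytes had a median log2 fold change of 1.32, beside 0.00 over all genes tested. In counts over lists, higher and lower mean an unadjusted edgeR p under 0.05, which 6.66% and 6.02% of all genes reached. Of the 24, 19 were higher and 0 lower, and 0 of 24 were without overlap. Cd68, whose protein coats the lysosomes of phagocytes, lies at chromosome 10, 54381814 to 54383693. It had 17.1, 11.2, 2.21, 1.70 and 3.64 CPM in Vehicle-CCI, against 1.72, 0.626, 1.32, 0.945 and 1.94 CPM in Vehicle-sham. Of the 5 injured libraries 4 lay above every sham library and Vehicle-CCI 4 lay within them; the log2 fold change was 2.43 ± 0.57, with an edgeR adjusted p of 0.132, or 0.0211 without Vehicle-CCI 4. Spp1, the secreted phosphoprotein osteopontin, had 53.9, 36.6, 19.04, 1.43 and 18.6 CPM in Vehicle-CCI, against 1.42, 1.54, 1.73, 2.28 and 3.62 CPM in Vehicle-sham, a log2 fold change of 3.59 ± 0.80. Gpnmb, a glycoprotein of lipid-laden phagocytes, had 113, 47.6, 12.6, 6.87 and 23.2 CPM in Vehicle-CCI, against 4.53, 3.64, 2.44, 4.69 and 12.2 CPM in Vehicle-sham. In both genes Vehicle-CCI 1 was highest and Vehicle-CCI 4 lay within the sham range. Lgals3, the galectin of phagocytes, had 59.2, 56.8, 24.9, 3.80 and 10.6 CPM in Vehicle-CCI, against 2.78, 10.1, 1.65, 1.89 and 5.07 CPM in Vehicle-sham, where Vehicle-sham 2 was highest. The lipid receptor Trem2 and its signalling adaptor Tyrobp had smaller fold changes. Trem2 averaged 29.4 ± 19.6 CPM in Vehicle-CCI and 10.3 ± 1.41 CPM in Vehicle-sham, a log2 fold change of 1.51 ± 0.36, and Tyrobp averaged 35.4 ± 18.4 CPM in Vehicle-CCI and 14.3 ± 3.37 CPM in Vehicle-sham, 1.31 ± 0.30. Mmp12, the macrophage elastase, had the largest fold change of the list (5.60 ± 1.38) at a level of 6.51, 1.84, 1.08, 0 and 0.175 CPM in Vehicle-CCI and 0.0331, 0.0569, 0, 0.0652 and 0.0295 CPM in Vehicle-sham, so few sham counts that this fold is imprecise. Apoe, the lipid carrier of astrocytes and microglia, averaged 2132 ± 550.2 CPM in Vehicle-CCI and 2135 ± 709.9 CPM in Vehicle-sham, a log2 fold change of 0.00 ± 0.27. Gpnmb, Trem2, Mmp12 and Apoe were picked from the list after their values were seen.

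The promoters of 3 of these list members and of Clec12a are shown. Their genes had among the largest fold changes, and each promoter holds a match to TGANTCA, where N is any base. The AP-1 site bound by Fos and Jun dimers has C or G at N. The match in Clec12a has A there and is not that site. The genes were picked after the matches were counted. The sequences are from RefSeq on GRCr8, the 250 bases before the annotated start on the coding strand, 5′ to 3′, with motif matches in capitals.
Cd68 (chr10:54882442-54882691, minus strand): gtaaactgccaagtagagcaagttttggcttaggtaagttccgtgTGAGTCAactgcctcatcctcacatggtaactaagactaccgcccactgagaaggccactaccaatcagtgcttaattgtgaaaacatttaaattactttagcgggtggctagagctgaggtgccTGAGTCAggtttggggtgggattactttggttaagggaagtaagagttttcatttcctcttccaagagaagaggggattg
Gpnmb (chr4:79340878-79341127, plus strand): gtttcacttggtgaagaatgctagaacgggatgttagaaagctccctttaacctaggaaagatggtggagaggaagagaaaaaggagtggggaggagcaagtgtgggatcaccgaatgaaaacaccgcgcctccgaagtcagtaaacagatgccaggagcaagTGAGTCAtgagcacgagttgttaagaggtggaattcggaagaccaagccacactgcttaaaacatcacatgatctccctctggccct
Mmp12 (chr8:12866402-12866651, plus strand): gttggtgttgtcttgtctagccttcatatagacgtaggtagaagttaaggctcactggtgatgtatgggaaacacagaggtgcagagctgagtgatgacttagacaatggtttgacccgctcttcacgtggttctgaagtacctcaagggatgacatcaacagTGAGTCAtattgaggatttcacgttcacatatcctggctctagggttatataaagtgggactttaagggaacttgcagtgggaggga
Clec12a (chr4:164483912-164484161, plus strand): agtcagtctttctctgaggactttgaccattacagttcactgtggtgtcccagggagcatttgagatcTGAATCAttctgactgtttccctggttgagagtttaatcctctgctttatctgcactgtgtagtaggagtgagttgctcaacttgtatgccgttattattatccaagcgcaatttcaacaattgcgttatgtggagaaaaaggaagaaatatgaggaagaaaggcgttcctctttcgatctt
Cd68 had matches beginning 205 and 80 bases before the start, Gpnmb and Mmp12 each had a match at 87 bases and Clec12a at 182 bases. TGANTCA, with any base at N, was searched on both strands in the 250 bases before each start. Its counts thus take in more than the AP-1 site. Of the activated microglia list, 18 members had a promoter in the table. TGANTCA was found in 5 of these 18 (Cd63, Cd68, Gpnmb, Itgax and Mmp12), and in 2122 of all 33469 promoters (6.34%). The motif GAGGAAGT, bound by the myeloid factor PU.1, was found in 1 of the same 18 (Fcgr3a), and in 2.04% of all promoters. A match is a description of letters in this window and not a bound site.

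The list called resting microglia had a smaller positive median. It also holds genes not confined to that state, among them Csf1r, Aif1 and the leukocyte gene Ptprc. Over the 13 tested members of that list the median log2 fold change was 0.58, with 9 higher and 0 lower at an unadjusted p under 0.05. Csf1r, the receptor for the growth factors on which microglia depend, had 182, 155, 50.9, 59.7 and 94.7 CPM in Vehicle-CCI, against 39.04, 21.8, 34.9, 35.6 and 63.6 CPM in Vehicle-sham, a log2 fold change of 1.47 ± 0.35. It overlapped sham in Vehicle-CCI 3 and 4. Aif1, the calcium-binding protein IBA1 used to stain microglia, averaged 47.6 ± 22.6 CPM in Vehicle-CCI and 23.9 ± 4.96 CPM in Vehicle-sham. Ptprc, the leukocyte phosphatase CD45, averaged 28.1 ± 20.9 CPM in Vehicle-CCI and 7.79 ± 3.28 CPM in Vehicle-sham, a log2 fold change of 1.85 ± 0.50. Cx3cr1, the fractalkine receptor, had 43.3, 19.04, 12.6, 15.4 and 15.4 CPM in Vehicle-CCI, against 13.1, 9.73, 6.80, 8.18 and 13.7 CPM in Vehicle-sham, and here Vehicle-CCI 1 alone stood far above the rest. P2ry12, a purine receptor held to be lost on activation, ran from 39.5 to 74.1 CPM in Vehicle-CCI and from 19.9 to 71.9 CPM in Vehicle-sham. Tmem119, a microglial surface protein picked after its values were seen, ran from 4.37 to 8.04 CPM in Vehicle-CCI and from 3.36 to 7.99 CPM in Vehicle-sham. Macrophages of the brain's borders gave a median of 0.12 over 9 genes (0.22 without Vehicle-CCI 4 and 0.41 without Vehicle-sham 2). In that list 1 was higher (Folr2) and 0 lower at an unadjusted p under 0.05. The mean log2(CPM + 0.5) of the list, centred on the sham mean, was 0.67, 0.80, -0.12, -0.37 and -0.15 in Vehicle-CCI 1 to 5. In Vehicle-sham 1 to 5 it was 0.01, 0.41, 0.18, -0.31 and -0.29. Vehicle-CCI 1 and 2 thus lay above every sham library, and Vehicle-CCI 3, 4 and 5 did not. The border markers Mrc1 and Lyve1, picked after their values were seen, lay in overlapping ranges. Mrc1 ran from 2.97 to 5.89 CPM in Vehicle-CCI and from 2.59 to 5.01 CPM in Vehicle-sham.

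The mean levels of the oxidase and lysosome lists were highest in Vehicle-CCI 1 and 2. In the list of the phagocyte oxidase and the antioxidant response, 5 of 14 genes were higher and 2 lower at an unadjusted p under 0.05 (median 0.45). Ncf1, the organising subunit of the superoxide-producing oxidase, had 73.8, 94.2, 22.4, 9.67 and 22.5 CPM in Vehicle-CCI, against 8.67, 6.60, 9.85, 6.26 and 10.96 CPM in Vehicle-sham, a log2 fold change of 2.39 ± 0.54. Ncf4, Rac2 and Cyba, further parts of that complex, had log2 fold changes of 1.86 ± 0.46, 1.22 ± 0.34 and 1.12 ± 0.33. Of 18 lysosomal genes, 18 had a fold change above 0, beside 50.4% of all genes, and 11 were higher at an unadjusted p under 0.05 (median 0.59). Lgmn, an asparaginyl protease, had 166, 104, 70.7, 66.02 and 80.4 CPM in Vehicle-CCI, against 49.6, 55.8, 50.96, 50.2 and 53.7 CPM in Vehicle-sham. All 5 injured libraries lay above the highest sham library in Lgmn and in the sulfatase Galns (0.98 ± 0.26), the 2 of the 18 without overlap. Laptm5, a lysosomal membrane protein, averaged 29.99 ± 19.5 CPM in Vehicle-CCI and 11.5 ± 3.19 CPM in Vehicle-sham, a log2 fold change of 1.39 ± 0.33. Npc2, which moves cholesterol out of lysosomes, averaged 119.9 ± 46.6 CPM in Vehicle-CCI and 59.9 ± 17.4 CPM in Vehicle-sham (1.00 ± 0.24).

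Complement and antigen presentation genes had positive medians. Of 21 complement genes, 11 were higher and 0 lower at an unadjusted p under 0.05 (median 0.75). C3, on which the complement pathways converge, had 48.9, 30.1, 12.02, 20.8 and 35.4 CPM in Vehicle-CCI, against 3.61, 2.96, 5.00, 9.19 and 18.9 CPM in Vehicle-sham, a log2 fold change of 1.88 ± 0.52; Vehicle-CCI 3 lay below Vehicle-sham 5. The C1 inhibitor Serping1 had 48.1, 30.8, 8.19, 7.47 and 29.9 CPM in Vehicle-CCI, against 2.65, 5.52, 2.89, 4.43 and 11.4 CPM in Vehicle-sham (2.20 ± 0.58). C1qa, a chain of the first component, averaged 63.00 ± 30.4 CPM in Vehicle-CCI and 28.95 ± 11.5 CPM in Vehicle-sham (1.12 ± 0.31), and the integrin chain Itgb2, part of complement receptor 3, 10.1 ± 6.95 CPM in Vehicle-CCI and 3.03 ± 1.23 CPM in Vehicle-sham (1.72 ± 0.49). In MHC class II, which presents peptides to CD4 T cells, 3 of 9 genes were higher (median 1.01). Its invariant chain Cd74 had 77.9, 22.01, 13.98, 10.2 and 21.3 CPM in Vehicle-CCI, against 7.25, 5.01, 2.48, 9.03 and 18.7 CPM in Vehicle-sham, and Vehicle-CCI 1 stood alone at the top. In MHC class I processing 2 of 12 were higher, the immunoproteasome subunit Psmb8 (0.75 ± 0.33) and the transactivator Nlrc5 (0.84 ± 0.38), with a median of 0.33. Counts of the RT1 genes, the rat MHC, are uncertain because near-identical copies share reads.

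Interferon-response genes had a median of 0.57 over 20 genes, with 4 higher and 0 lower at an unadjusted p under 0.05. Irf8, a transcription factor of microglia and other myeloid cells, had 90.97, 115, 24.3, 12.1 and 30.2 CPM in Vehicle-CCI, against 16.6, 7.11, 13.2, 8.28 and 18.4 CPM in Vehicle-sham, a log2 fold change of 2.09 ± 0.52. Sting1, a sensor of cytosolic DNA signals and the 1 list member without overlap, had 8.48, 13.7, 3.89, 3.37 and 3.93 CPM in Vehicle-CCI, against 2.15, 1.65, 3.01, 2.05 and 3.33 CPM in Vehicle-sham (1.45 ± 0.37). Ifitm3 and Gbp2 completed the 4, with log2 fold changes of 1.25 ± 0.42 and 1.15 ± 0.45. A sham library was high in this list: its mean log2(CPM + 0.5), centred on the sham mean, was 1.43 in Vehicle-CCI 1, 1.35 in Vehicle-CCI 2, 0.44 in Vehicle-CCI 3, -0.38 in Vehicle-CCI 4 and 0.68 in Vehicle-CCI 5, against 1.43 in Vehicle-sham 5 and between -0.47 and -0.10 in the other sham libraries. Gbp2, for one, had 38.5, 28.3, 15.1, 5.67 and 13.5 CPM in Vehicle-CCI, against 5.06, 14.1, 6.35, 4.53 and 15.6 CPM in Vehicle-sham. The core of the interferon-stimulated response element was found on either strand in 9 of the 15 list members with a promoter in the table, and in 3.41% of all promoters.

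Among 20 tested cytokine and chemokine genes, 11 were higher and 0 lower at an unadjusted p under 0.05 (median 0.92), mostly at low levels. The neutrophil attractant Cxcl1 had 2.77, 0.748, 0.126, 0.0667 and 0.291 CPM in Vehicle-CCI, against 0.132, 0.114, 0.0752, 0.0978 and 0.118 CPM in Vehicle-sham, a log2 fold change of 2.86 ± 0.75 on few sham counts. Vehicle-CCI 1, 2 and 5 lay above every sham library. Ccl3, a chemokine that draws monocytes, had 1.83, 2.79, 0.474, 0.133 and 0.465 CPM in Vehicle-CCI, against 0.165, 0.0569, 0.338, 0.0326 and 0.471 CPM in Vehicle-sham. Tgfb1, a growth factor that restrains inflammation, had 18.05, 14.3, 3.95, 6.27 and 7.74 CPM in Vehicle-CCI, against 4.30, 3.70, 3.72, 3.39 and 4.71 CPM in Vehicle-sham (1.34 ± 0.39), with Vehicle-CCI 3 inside the sham range. Csf1, a ligand of Csf1r, averaged 32.7 ± 11.3 CPM in Vehicle-CCI and 19.4 ± 6.22 CPM in Vehicle-sham (0.75 ± 0.24). The TGF-beta receptor genes Tgfbr2 and Tgfbr1 had log2 fold changes of 0.95 ± 0.31 and 0.69 ± 0.27, the 2 of 15 genes of that pathway higher at an unadjusted p under 0.05 (median -0.01; -0.03 without Vehicle-CCI 4 and 0.03 without Vehicle-sham 2).

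Reactive astrocyte genes had a median of 0.97 over 20 genes, 13 higher and 0 lower at an unadjusted p under 0.05. Gfap encodes the main intermediate filament protein in astrocytes and lies at chromosome 10, 87852891 to 87861631. It had 3343, 3166, 1003, 1531 and 2276 CPM in Vehicle-CCI, against 978, 743, 780.1, 1057 and 1714 CPM in Vehicle-sham, so that the log2 fold change was 1.10 ± 0.39 (adjusted p in edgeR 0.244). Vehicle-CCI 1, 2 and 5 lay above every sham library, and Vehicle-CCI 3 and 4 among them. Vim, the filament protein vimentin, had 355, 150.5, 58.7, 76.5 and 145 CPM in Vehicle-CCI, against 29.6, 61.2, 31.9, 44.2 and 33.7 CPM in Vehicle-sham (1.97 ± 0.54). Cp, a copper-binding ferroxidase, had 165, 163, 75.5, 16.1 and 48.7 CPM in Vehicle-CCI, against 15.9, 37.9, 20.4, 16.5 and 15.97 CPM in Vehicle-sham (2.14 ± 0.52). In Vim all injured libraries but Vehicle-CCI 3, and in Cp all but Vehicle-CCI 4, lay above every sham library. Lcn2, an iron-siderophore carrier, and the galactosyltransferase Ggta1 had log2 fold changes of 1.67 ± 0.53 and 0.70 ± 0.23. Genes of astrocytes at rest did not share this: 0 of 16 reached an unadjusted p under 0.05 in either direction, with a median of -0.09 (-0.21 without Vehicle-CCI 4 and 0.03 without Vehicle-sham 2). The glutamate transporter Slc1a2 averaged 138 ± 78.4 CPM in Vehicle-CCI and 174 ± 80.9 CPM in Vehicle-sham, a log2 fold change of -0.34 ± 0.33. In the list of metallothioneins, iron and heme, 6 of 13 were higher and 1 lower (median 0.05; -0.03 without Vehicle-CCI 4 and 0.24 without Vehicle-sham 2). The metal-binding proteins Mt1 and Mt2A averaged 7.73 ± 2.51 and 61.7 ± 29.7 CPM in Vehicle-CCI, against 3.65 ± 1.39 and 30.6 ± 9.30 CPM in Vehicle-sham; as near-identical genes they may share reads.

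**Figure D2:**
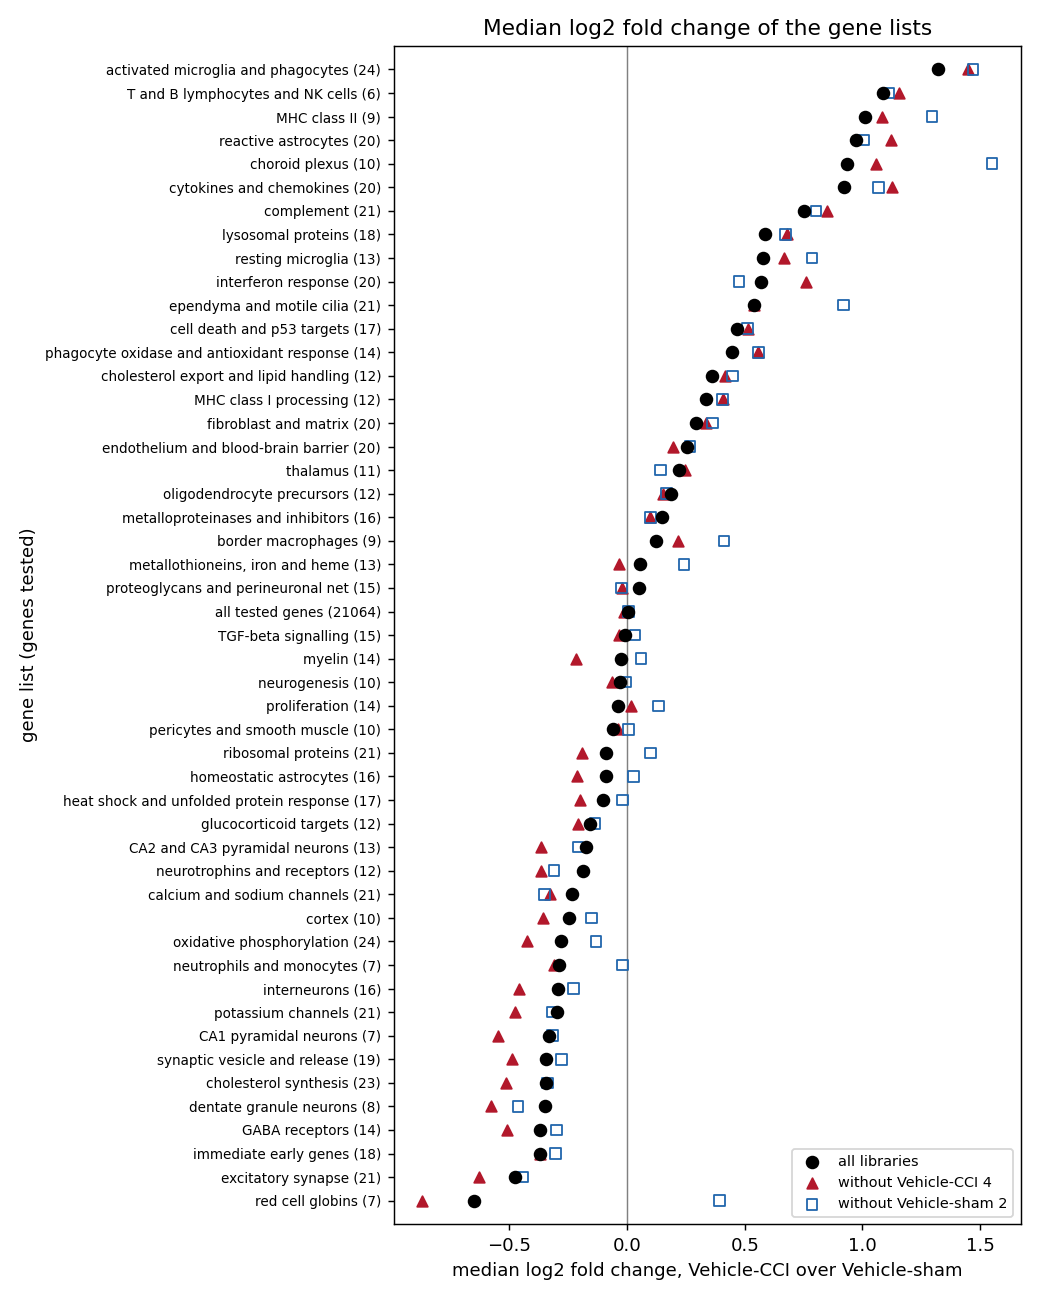
Median log2 fold change (Vehicle-CCI over Vehicle-sham) of each gene list, ordered by value, with all 25 libraries fitted (filled circles), without Vehicle-CCI 4 (triangles) and without Vehicle-sham 2 (open squares). Activated microglia lie at 1.32 and excitatory synapse genes at -0.48; the globin list runs from -0.65 to 0.39 when Vehicle-sham 2 is left out.

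Matrix and vessel genes held fewer differences. Of 20 fibroblast and matrix genes 3 were higher and 0 lower at an unadjusted p under 0.05 (median 0.29): Col6a2, a chain of microfibril collagen (1.23 ± 0.47), the collagen-binding proteoglycan Fmod (1.08 ± 0.44) and fibronectin, Fn1 (0.63 ± 0.26). Fn1 had 17.4, 19.6, 8.85, 13.3 and 21.7 CPM in Vehicle-CCI, against 10.8, 9.96, 10.5, 9.94 and 11.1 CPM in Vehicle-sham, with Vehicle-CCI 3 below every sham library. In proteoglycans and the perineuronal net 2 of 15 were higher and 0 lower (median 0.05; -0.02 without Vehicle-CCI 4 and -0.02 without Vehicle-sham 2), Sulf1, which had 16.7, 10.7, 12.5, 5.00 and 5.35 CPM in Vehicle-CCI, against 2.68, 4.21, 4.66, 2.28 and 4.57 CPM in Vehicle-sham, and the adhesion-modulating glycoprotein Tnc (0.70 ± 0.25). Of 16 metalloproteinases and inhibitors, Mmp2 and Adamts1 were higher and Mmp24 and Mmp16 lower at an unadjusted p under 0.05 (median 0.15; 0.10 without Vehicle-CCI 4). Mmp24 and Mmp16 are membrane-type enzymes (-0.67 ± 0.18 and -0.42 ± 0.17), and Mmp2 is a secreted gelatinase (0.84 ± 0.26). Adamts1, a protease of aggrecan, had 5.24, 4.66, 3.64, 4.04 and 3.87 CPM in Vehicle-CCI, against 2.98, 2.45, 2.71, 2.74 and 2.42 CPM in Vehicle-sham, without overlap. Mmp16 had 60.2, 51.5, 64.5, 69.2 and 52.97 CPM in Vehicle-CCI, against 79.9, 75.1, 89.9, 80.6 and 73.9 CPM in Vehicle-sham, without overlap, and Mmp24 had 32.4, 24.1, 32.2, 53.6 and 34.2 CPM in Vehicle-CCI, against 60.2, 57.8, 43.8, 64.4 and 55.1 CPM in Vehicle-sham. Among 20 endothelial genes 1 was higher and 0 lower (median 0.25), Aplnr, the apelin receptor, at 6.06, 3.28, 1.49, 2.03 and 2.56 CPM in Vehicle-CCI and 1.39, 1.31, 1.24, 1.47 and 1.12 CPM in Vehicle-sham, again without overlap. Pericyte and smooth muscle genes gave 0 of 10 in either direction (median -0.06; -0.04 without Vehicle-CCI 4 and 0.01 without Vehicle-sham 2).

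Neuronal lists had negative medians, smaller in size than those of activated microglia and reactive astrocytes. Of 21 excitatory synapse genes, 20 had a fold change below 0 and 11 were lower, 0 higher, at an unadjusted p under 0.05 (median -0.48). Neurod6, a transcription factor of pyramidal neurons, had 87.9, 76.3, 154, 184 and 107 CPM in Vehicle-CCI, against 158, 441, 191, 215 and 224 CPM in Vehicle-sham. Its log2 fold change was -1.01 ± 0.26, and -0.67 without Vehicle-sham 2, the highest of the 10. Camk2a, the kinase of the postsynaptic density, had 1862, 1209, 1416, 3818 and 2299 CPM in Vehicle-CCI, against 4801, 3993, 2159, 3987 and 4641 CPM in Vehicle-sham (-0.89 ± 0.30). Vehicle-CCI 4 and 5 lay above Vehicle-sham 3, the lowest sham library, and the other 3 injured libraries below every sham library. The postsynaptic scaffold Shank3 averaged 328 ± 88.1 CPM in Vehicle-CCI and 517 ± 103 CPM in Vehicle-sham (-0.65 ± 0.23). Homer1, another scaffold, averaged 84.4 ± 26.4 CPM in Vehicle-CCI and 128 ± 45.2 CPM in Vehicle-sham (-0.60 ± 0.21; -0.34 without Vehicle-sham 2). On the presynaptic side, 19 of 19 vesicle and release genes had a fold change below 0 and 4 were lower at an unadjusted p under 0.05 (median -0.35): the fusion clamp Cplx2 (-0.60 ± 0.24) and the active-zone proteins Pclo (-0.35 ± 0.15), Rims1 (-0.36 ± 0.17) and Rims2 (-0.32 ± 0.15).

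Lists of inhibitory transmission and of channels also had negative medians. Of 14 GABA receptor genes, 14 had a fold change below 0 and 6 were lower at an unadjusted p under 0.05 (median -0.37). Gabra5, an extrasynaptic subunit rich in the hippocampus, had 150.2, 135, 205, 250.3 and 221 CPM in Vehicle-CCI, against 188, 588, 293, 288 and 229 CPM in Vehicle-sham, a log2 fold change of -0.72 ± 0.25 that became -0.35 without Vehicle-sham 2. Gabrb2 had a log2 fold change of -0.62 ± 0.25. Of 16 interneuron genes 3 were lower and 0 higher (median -0.29; -0.46 without Vehicle-CCI 4). They were the fast potassium channel Kcnc2 (-0.65 ± 0.20), parvalbumin, Pvalb (-0.57 ± 0.26; -0.31 without Vehicle-sham 2), and the cannabinoid receptor Cnr1 (-0.81 ± 0.27; -0.34 without Vehicle-sham 2). Of 21 potassium channel genes 6 were lower and 0 higher (median -0.30; -0.47 without Vehicle-CCI 4). Kcnh7, an ERG-type channel, had 51.8, 40.05, 86.1, 88.97 and 49.8 CPM in Vehicle-CCI, against 85.1, 134, 94.4, 106 and 127 CPM in Vehicle-sham (-0.79 ± 0.20). Among 21 calcium and sodium channel genes 1, the beta subunit Cacnb4 (-0.36 ± 0.17), reached an unadjusted p under 0.05 (median -0.23; -0.35 without Vehicle-sham 2).

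The 12 non-overlapping genes of most negative fold change held several neuronal genes. Epha6, an ephrin receptor (chromosome 11, 39757870 to 40708901), had 188, 128, 284, 274 and 173 CPM in Vehicle-CCI, against 314, 463, 285, 396 and 428 CPM in Vehicle-sham, which gave a log2 fold change of -0.85 ± 0.20 and an adjusted p in edgeR of 0.132. The gap between the groups was narrow, with Vehicle-CCI 3 just under Vehicle-sham 3. Plcxd2, a phospholipase-like protein, had 64.8, 48.6, 106, 121 and 79.8 CPM in Vehicle-CCI, against 133, 170.4, 129, 134 and 140.1 CPM in Vehicle-sham (-0.75 ± 0.21). Tmem114 had 0.795, 0.460, 0.601, 0.901 and 0.843 CPM in Vehicle-CCI, against 1.32, 1.59, 1.50, 1.86 and 1.80 CPM in Vehicle-sham, the most negative of the 12 (-1.16 ± 0.26). Kcnt2, a sodium-activated potassium channel, had 58.8, 50.6, 73.5, 51.5 and 46.9 CPM in Vehicle-CCI, against 76.9, 199, 108, 73.9 and 76.4 CPM in Vehicle-sham, and Lrrtm2, a synaptic adhesion protein, had 74.7, 55.4, 76.3, 83.7 and 80.5 CPM in Vehicle-CCI, against 90.2, 188, 125, 97.1 and 107 CPM in Vehicle-sham. In both, Vehicle-sham 2 was far above the other sham libraries: without it the log2 fold change of Kcnt2 was -0.55 in place of -0.92 ± 0.29 and that of Lrrtm2 -0.48 in place of -0.71 ± 0.21. The same held for Klhl34 (-0.72 ± 0.20; -0.46 without it), Klhl2 (-0.65 ± 0.21; -0.31) and Yy2 (-0.66 ± 0.23; -0.28). The remaining 4 were Ptchd1, Enox2, the guanylate cyclase subunit Gucy1a2 and Nr4a3, at log2 fold changes from -0.92 to -0.70.

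Markers of the hippocampal fields differed by library. In CA2 and CA3, 5 of 13 genes were lower and 0 higher at an unadjusted p under 0.05 (median -0.18; -0.37 without Vehicle-CCI 4). The copine Cpne4 had 42.5, 29.8, 40.5, 77.2 and 48.8 CPM in Vehicle-CCI, against 84.1, 127, 55.4, 96.4 and 95.1 CPM in Vehicle-sham (-0.94 ± 0.24), and Bok, a member of the Bcl2 family found in CA3, had 37.4, 29.2, 47.2, 75.9 and 38.98 CPM in Vehicle-CCI, against 73.8, 83.4, 52.1, 96.1 and 65.4 CPM in Vehicle-sham (-0.70 ± 0.22). In both, Vehicle-CCI 4 was the injured library at sham level. In CA1, 2 of 7 were lower (median -0.33; -0.55 without Vehicle-CCI 4), Pou3f1 (-0.79 ± 0.35) and Mpped1 (-0.51 ± 0.23). Without that library Pou3f1 had a log2 fold change of -1.34 and Mpped1 one of -0.79. Wfs1, an endoplasmic reticulum protein of CA1, had 30.7, 15.5, 35.3, 114 and 22.7 CPM in Vehicle-CCI, against 94.6, 46.4, 36.3, 85.9 and 123 CPM in Vehicle-sham, a log2 fold change of -0.82 ± 0.52 that became -1.57 without Vehicle-CCI 4. Of 8 dentate granule genes 2 were lower (median -0.35; -0.58 without Vehicle-CCI 4), Stxbp6 (-0.55 ± 0.20) and the desmosome protein Dsp (-0.59 ± 0.29). Prox1, the master factor of granule cells, had 19.3, 8.63, 12.4, 28.2 and 14.5 CPM in Vehicle-CCI, against 38.6, 8.31, 15.7, 18.5 and 24.3 CPM in Vehicle-sham, in wholly overlapping ranges. Of 10 neurogenesis genes, Neurod1 (-1.20 ± 0.39) and Eomes (-1.85 ± 0.74) were lower and Draxin (1.18 ± 0.45) higher at an unadjusted p under 0.05. Neurod1 and Eomes both turned on Vehicle-sham 2, with log2 fold changes of -0.40 and -0.58 without it. Of 14 proliferation genes 2 were higher (median -0.04; 0.02 without Vehicle-CCI 4 and 0.13 without Vehicle-sham 2), the mitotic kinase Aurkb at 43.2, 5.38, 13.1, 23.4 and 6.78 CPM in Vehicle-CCI and 12.04, 9.28, 2.22, 3.26 and 1.77 CPM in Vehicle-sham, and the replication helicase subunit Mcm2 (0.56 ± 0.23).

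Activity-dependent and trophic genes included Bdnf, the neurotrophin that supports synapses, at 23.3, 18.3, 31.1, 36.3 and 27.02 CPM in Vehicle-CCI and 26.9, 77.2, 48.97, 48.5 and 45.2 CPM in Vehicle-sham (chromosome 3, 96165042 to 96215621). Its log2 fold change was -0.86 ± 0.27 (edgeR adjusted p = 0.203), and -0.62 without Vehicle-sham 2. It was the 1 of 12 neurotrophin and receptor genes at an unadjusted p under 0.05 (median -0.19; -0.37 without Vehicle-CCI 4 and -0.31 without Vehicle-sham 2). Of 18 immediate early genes 4 were lower and 1 higher (median -0.37). Nr4a3, a nuclear receptor induced by activity, had 22.9, 16.5, 26.5, 38.3 and 30.2 CPM in Vehicle-CCI, against 41.2, 38.9, 39.6, 51.4 and 46.6 CPM in Vehicle-sham, without overlap (-0.70 ± 0.18). Egr3, a zinc-finger factor, had 33.1, 24.6, 57.4, 54.7 and 32.6 CPM in Vehicle-CCI, against 56.9, 235, 55.2, 56.3 and 54.6 CPM in Vehicle-sham, so that its log2 fold change of -1.18 ± 0.53 became -0.44 without Vehicle-sham 2. Fos, a partner in AP-1 dimers, had a fold change above 0, at 9.48, 10.4, 9.26, 5.67 and 6.11 CPM in Vehicle-CCI and 3.28, 5.75, 6.20, 5.09 and 6.51 CPM in Vehicle-sham (0.61 ± 0.29). In 12 glucocorticoid targets the 2 lower were the receptors themselves, Nr3c2 (-0.65 ± 0.26) and Nr3c1 (-0.27 ± 0.12).

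Cholesterol synthesis and export differed in sign. Of 23 synthesis genes, 22 had a fold change below 0 and 8 were lower, 0 higher, at an unadjusted p under 0.05 (median -0.35). Hmgcs1, which makes the precursor HMG-CoA, had 126, 83.5, 208, 252 and 151 CPM in Vehicle-CCI, against 238, 589.6, 232, 245 and 223 CPM in Vehicle-sham; its log2 fold change of -0.90 ± 0.28 became -0.49 without Vehicle-sham 2. Hsd17b7, Nsdhl and Fdps, later enzymes of the pathway, had log2 fold changes of -0.44 ± 0.15, -0.48 ± 0.17 and -0.45 ± 0.16, that of Nsdhl -0.30 without Vehicle-sham 2. Of 12 export and lipid-handling genes, 5 were higher and 0 lower (median 0.36). Abca1, the pump that loads cholesterol onto apolipoproteins, had 256, 233, 113, 59.1 and 121 CPM in Vehicle-CCI, against 69.1, 58.6, 85.2, 65.3 and 72.7 CPM in Vehicle-sham (1.16 ± 0.33). Vehicle-CCI 4 alone lay within the sham range. Ch25h, which makes 25-hydroxycholesterol, Plin3 and Lpcat2 had log2 fold changes of 1.58 ± 0.52, 0.61 ± 0.19 and 0.65 ± 0.21.

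Housekeeping lists held few genes at an unadjusted p under 0.05, and the ribosomal median changed sign without Vehicle-sham 2. In oxidative phosphorylation 1 of 24 genes was lower, Sdhb, a subunit of succinate dehydrogenase (-0.42 ± 0.19; -0.15 without Vehicle-sham 2), with a median of -0.28 that became -0.13 without that library and -0.43 without Vehicle-CCI 4. Ribosomal protein genes had 0 of 21 in either direction and a median of -0.09, which became 0.10 without Vehicle-sham 2 and -0.19 without Vehicle-CCI 4. Of 17 heat shock and unfolded protein response genes 1 was higher, Sdf2l1 (0.63 ± 0.21), with a median of -0.10 (-0.20 without Vehicle-CCI 4 and -0.02 without Vehicle-sham 2). Myelin genes had 0 of 14 in either direction (median -0.03; -0.22 without Vehicle-CCI 4 and 0.06 without Vehicle-sham 2), and 1 of 12 genes of oligodendrocyte precursors was higher, C1ql1 (0.39 ± 0.15). Of 17 genes of cell death, 9 were higher and 0 lower (median 0.47). They included Casp1, the inflammasome protease, at 15.6, 21.3, 7.21, 5.37 and 7.53 CPM in Vehicle-CCI and 3.71, 3.93, 8.68, 4.01 and 3.71 CPM in Vehicle-sham (1.25 ± 0.38), the necroptosis kinase Ripk3 (1.34 ± 0.45), the death receptor Fas (1.12 ± 0.33) and the TNF receptor Tnfrsf1a (0.96 ± 0.32).

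Markers of other tissues and of blood were measured beside these lists. Choroid plexus lies along the hippocampus, and its thyroid hormone carrier Ttr had 12.5, 7.77, 3757, 50.6 and 4.86 CPM in Vehicle-CCI, against 351, 185, 16.3, 10.7 and 14.6 CPM in Vehicle-sham. Vehicle-CCI 3 was far above the rest, with Vehicle-sham 1 and 2 next. The summed level of the 10 choroid plexus genes ran from 41.4 to 4043 CPM in Vehicle-CCI, the highest in Vehicle-CCI 3. In Vehicle-sham it ran from 46.0 to 440.1 CPM. At an unadjusted p under 0.05, 2 of 10 were higher. In both of them Vehicle-CCI 3 was the only injured library above every sham library. Of 21 genes of ependyma and motile cilia, 4 were higher and 1 lower (median 0.54; 0.92 without Vehicle-sham 2). The cilia motor gene Dnah12 had 159, 105, 69.8, 50.4 and 77.3 CPM in Vehicle-CCI, against 52.3, 12.3, 24.4, 43.8 and 30.1 CPM in Vehicle-sham (1.50 ± 0.38), while Dnajb13, of the ciliary radial spoke, had 13.5, 13.5, 24.7, 20.2 and 13.4 CPM in Vehicle-CCI, against 27.5, 26.2, 26.4, 30.4 and 20.8 CPM in Vehicle-sham (-0.62 ± 0.16). Of 11 thalamic markers 1 was higher, Prkcd, at 42.3, 54.9, 15.97, 9.04 and 15.3 CPM in Vehicle-CCI and 8.90, 4.84, 14.7, 8.70 and 13.3 CPM in Vehicle-sham; the thalamic glutamate transporter Slc17a6 ran from 8.03 to 18.9 CPM in Vehicle-CCI and from 10.1 to 28.3 CPM in Vehicle-sham. Of 10 genes listed as cortical markers 1 was lower, Bcl11b (-0.73 ± 0.26, and -0.41 without Vehicle-sham 2). Bcl11b ran from 42.1 to 130 CPM in Vehicle-CCI and from 79.3 to 228 CPM in Vehicle-sham. Whether its RNA came from cortex or from hippocampal neurons was not tested. Summed levels of the cortical list ran from 259.7 to 444.2 CPM in Vehicle-CCI and from 324.6 to 438.7 CPM in Vehicle-sham. Their part in the lists for phagocytes and neurons was not tested.

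Red cell and leukocyte genes gave mixed values. The 7 red cell genes, among them globins whose near-identical copies can share reads, summed to 146.4 to 730.9 CPM in Vehicle-CCI and 57.7 to 1812 CPM in Vehicle-sham, the highest in Vehicle-sham 2, and their median of -0.65 became 0.39 without that library. Of 12 neutrophil and monocyte markers 7 were expressed enough to be tested, and 1 was higher, the receptor Csf3r, which microglia also carry, at 25.4, 30.7, 12.3, 4.90 and 9.22 CPM in Vehicle-CCI and 7.61, 3.30, 9.13, 5.28 and 6.28 CPM in Vehicle-sham. The neutrophil and monocyte genes S100a8, S100a9 and Mpo did not exceed 2.97 CPM in any Vehicle-CCI library or 4.84 CPM in any Vehicle-sham library. Of 15 lymphocyte markers 6 were tested and 3 were higher. Cd4, carried in rats by microglia and macrophages as well as T cells, had 26.9, 30.8, 6.04, 5.14 and 7.36 CPM in Vehicle-CCI, against 4.27, 2.56, 1.80, 3.23 and 5.16 CPM in Vehicle-sham (2.16 ± 0.50). Cd8a had 0.648, 1.21, 0.158, 0.0334 and 0.349 CPM in Vehicle-CCI, against 0.165, 0, 0.150, 0 and 0.0589 CPM in Vehicle-sham, and Cd8b 0.913, 0.949, 0.316, 0.0334 and 0.116 CPM in Vehicle-CCI, against 0, 0.398, 0, 0 and 0.0295 CPM in Vehicle-sham. Cd3e, a CD3 chain of the T cell receptor complex, was not among the higher genes, at 0.618, 0.834, 1.11, 1.97 and 0.0291 CPM in Vehicle-CCI and 3.28, 1.88, 0.940, 2.35 and 3.89 CPM in Vehicle-sham.

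**Figure D3:**
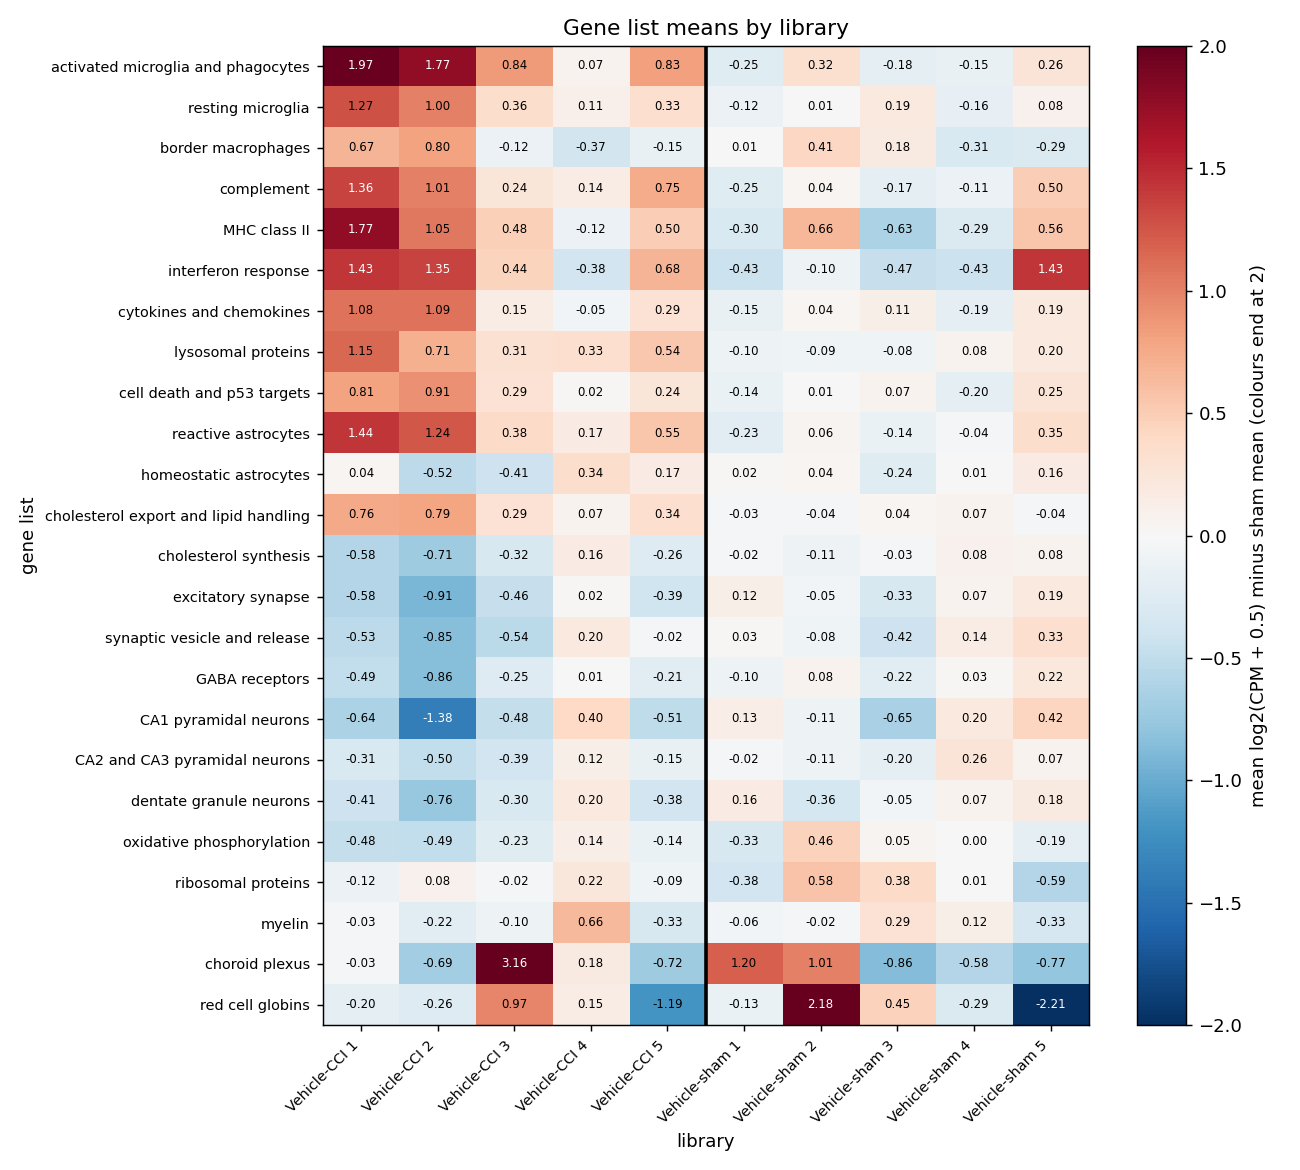
Mean log2(CPM + 0.5) of 24 gene lists in each Vehicle-CCI library (left) and each Vehicle-sham library (right), centred on the mean of the 5 sham libraries (red above it, blue below). Activated microglia are at 1.97 and 1.77 in Vehicle-CCI 1 and 2 and at 0.07 in Vehicle-CCI 4; interferon genes reach 1.43 in Vehicle-sham 5 and choroid plexus 3.16 in Vehicle-CCI 3.

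The order of the injured libraries recurred in several lists. For activated microglia the list mean, centred on sham, was 1.97, 1.77, 0.84, 0.07 and 0.83 in Vehicle-CCI 1 to 5, against -0.25 to 0.32 in Vehicle-sham. Reactive astrocytes had 1.44, 1.24, 0.38, 0.17 and 0.55 in Vehicle-CCI, against -0.23 to 0.35 in Vehicle-sham. Excitatory synapse genes had -0.58, -0.91, -0.46, 0.02 and -0.39 in Vehicle-CCI, against -0.33 to 0.19 in Vehicle-sham, and cholesterol synthesis -0.58, -0.71, -0.32, 0.16 and -0.26 in Vehicle-CCI, against -0.11 to 0.08 in Vehicle-sham. Vehicle-CCI 1 and 2 were farthest from sham in these 4 lists, and Vehicle-CCI 4 lay within the sham range in the first 3 of these lists. Gene by gene, among the 1402 higher at an unadjusted p under 0.05, Vehicle-CCI 2 was highest of the 10 libraries in 56.2% and Vehicle-CCI 1 in 34.3%, and Vehicle-CCI 4 was lowest of the injured libraries in 63.9%. Over all genes tested those shares were 17.6%, 8.61% and 26.9%. Among the 1267 lower, Vehicle-CCI 2 was lowest of the injured libraries in 63.6% and Vehicle-sham 2 highest of the 10 in 71.2%, beside 25.2% and 25.5% of all genes. The genes of each direction were chosen by p on the same libraries, so these shares describe them and test nothing.

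**Figure D4:**
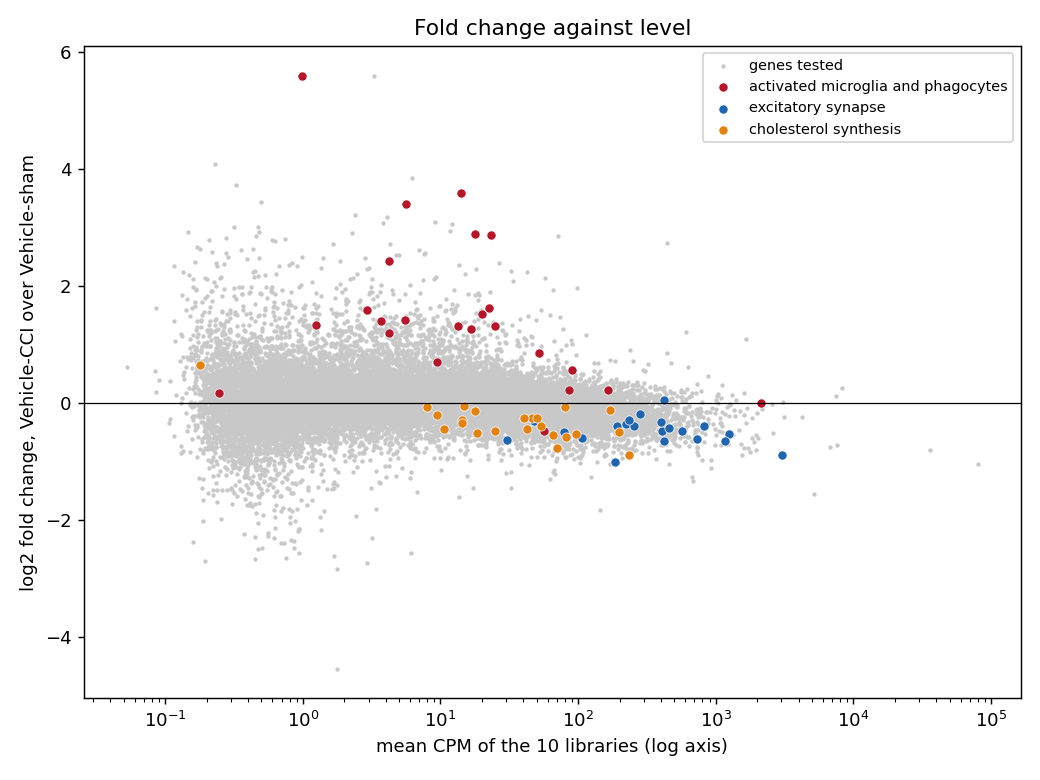
Log2 fold change of Vehicle-CCI over Vehicle-sham against the mean level of each of the 21064 genes tested (grey; mean CPM of the 10 libraries, log axis), with 3 lists marked. Activated microglia (red) spread upward to 5.60 at mostly low levels, excitatory synapse genes (blue) lie between -1.01 and 0.05 at high levels, and cholesterol synthesis genes (orange) mostly below 0.

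Genes at the 2 ends differed in level, fold size and span. Those higher at an unadjusted p under 0.05 had a median level of 5.29 CPM and a median log2 fold change of 0.90, and 599 of 1402 were past a doubling. Those lower had a median level of 49.2 CPM and a median log2 fold change of -0.53, and 158 of 1267 were past a halving; without Vehicle-sham 2 their median was -0.34. The lower genes were longer, with a median span of 32.0 kb on the genome, beside 15.4 kb for the higher genes and 18.0 kb for all genes tested. Of the higher genes 76.6% were protein-coding in RefSeq, of the lower genes 83.2%, and of all genes 73.3%. Both sets were chosen by p, and a gene at a low level needs a larger fold to reach it. Level and fold size are thus partly set by the choice. Vehicle-sham 2 was highest of the 10 libraries in 71.2% of the lower genes. The part of that library in their level and span was not tested.

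The injured libraries without a supplement were last set against those with one. Between Vehicle-CCI and the mean of TD-CCI, TCF-CCI and TNF-CCI, edgeR called 0 of 21064 genes (0%) and DESeq2 0; 399 (1.89%) had an unadjusted edgeR p under 0.05. Cd68 averaged 7.16 ± 6.74 CPM in Vehicle-CCI, against 6.79 ± 2.27 CPM in TD-CCI, 4.02 ± 2.70 CPM in TCF-CCI and 9.04 ± 3.99 CPM in TNF-CCI (SD, n = 5 each), a log2 difference of 0.19 ± 0.42. For Gfap the averages were 2264 ± 1013 CPM in Vehicle-CCI, 2769 ± 632 CPM in TD-CCI, 1859 ± 814 CPM in TCF-CCI and 4202 ± 2563 CPM in TNF-CCI (-0.30 ± 0.32). Bdnf averaged 27.2 ± 6.93 CPM in Vehicle-CCI, 25.7 ± 3.20 CPM in TD-CCI, 24.3 ± 5.25 CPM in TCF-CCI and 34.3 ± 18.8 CPM in TNF-CCI (-0.03 ± 0.22). The differences of these 3 genes were within the spread between libraries. The unadjusted edgeR p was 0.653 for Cd68, 0.359 for Gfap and 0.886 for Bdnf. A p that misses the threshold does not show that the groups were alike.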

How the data were processed

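Polyadenylated RNA of rat hippocampus was sequenced in 25 libraries. The authors deposited raw counts per gene and library, made on mRatBN7.2; STAR, Salmon, featureCounts and DESeq2 are named per the submitters' processing notes, without versions or settings, and no source used here gives the strand setting of the counting. The authors' deposited table for Vehicle-CCI gives a mean signal, log2 fold changes, p-values and adjusted p-values. From the counts, edgeR 4.0.16 (R 4.3.3) was run here with TMM scaling, its filter on low counts by group, 5 group means over all 25 libraries, the quasi-likelihood F test and Benjamini-Hochberg adjustment over all 21064 genes tested of 34322 listed. DESeq2 1.42.0 and limma 3.58.1 (voom) were alternatives. The fit was tested on simulated data.

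Genes named were Gfap, Cd68 and Bdnf, the 12 largest and 12 most negative fold changes among annotated genes without overlap, the 10 of smallest p, the 4 of smallest p in each list and the defining markers; others are said to be picked after their values were seen. Some genes that the rule names are not reported here. The 48 lists, the members and the rule were chosen with earlier results of these data known.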

Additional observations from a re-analysis of the deposited data

Results flagged for a closer look

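Of 322 groups of 5 libraries examined (named genes and library measures), 45 held a library set apart from the rest. Its gap to its nearest neighbour, divided by the range of the group, exceeded 0.71. Chance alone gives about 1 in 20 for independent, normally distributed values. Levels of genes from the same 10 libraries are not independent, so that rate cannot judge the 45. Levels are CPM. Vehicle-sham 2 accounted for 25. It was highest of the sham libraries for the neuronal and activity genes Bcl11b at 228, Cnr1 at 691, Egr3 at 235, Eomes at 4.44, Gabra5 at 588, Homer1 at 207, Kcnt2 at 199, Neurod1 at 112, Neurod6 at 441 and Pvalb at 55.8. The same held for Hmgcs1 at 589.6 and Nsdhl at 40.7, for Klhl2 at 660.0, Klhl34 at 388, Plcxd2 at 170.4 and Yy2 at 13.8, and for Cd63 at 123, Cp at 37.9, Cyba at 9.62, Lyve1 at 2.22, S100a8 at 3.07 and S100a9 at 4.84. It was highest in Cd8b at 0.398 and lowest in Galns at 3.64 and Lpcat2 at 11.8. Its mitochondrial rRNA share was 25.6%, and the part of that share in these levels was not tested.

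Vehicle-CCI 1 stood out as highest of the injured libraries in Cd74 at 77.9, Cx3cr1 at 43.3, Cxcl1 at 2.77, Laptm5 at 63.6 and Mmp12 at 6.51. Vehicle-CCI 2 was highest in Adam33 at 7.05 and in Mt2A at 112.1. Vehicle-CCI 3 was highest in the choroid plexus gene Ttr at 3757, in S100a8 at 2.02 and in S100a9 at 2.97, and lowest in Mcm2 at 3.45 and Mpo at 0.0632. Vehicle-CCI 4 was highest in the CA1 genes Pou3f1 at 44.6 and Wfs1 at 114 and in Dsp at 5.74. Vehicle-sham 5 was highest of the sham libraries in Gpnmb at 12.2, Ifitm3 at 12.1 and Tmem176a at 24.4, and Vehicle-sham 3 was highest in Casp1 at 8.68. Vehicle-CCI 5 was lowest of the injured libraries in Gucy1a2 at 46.9.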

How the results depend on the processing

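The edgeR count of 0 between Vehicle-CCI and Vehicle-sham held at an adjusted p under 0.1, with DESeq2's size factors, with no filter on low counts, with a filter at 1 CPM in 5 libraries, with limma voom, with mitochondrial rRNA share added as covariate, within the 2 groups alone and without Vehicle-sham 2 and 3. DESeq2 called 247 genes. Leaving out 1 library at a time gave 0 to 368 genes, with calls only without Vehicle-CCI 4. Leaving out Vehicle-CCI 4 and Vehicle-sham 2 together, chosen after seeing the data, gave 172. The replicate block gave 1 gene; in 4 of 5 numbers the closest library carried the same number, a hint from the data and not the design. Deviations of same-numbered libraries correlated at -0.103 to 0.275, over 0.1 in 3 of 5. No label ties a number to a shared animal, litter or day, and the numbers were not treated as pairs. The count against the supplement groups was 0 in every setting, block included.

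The difference in mitochondrial rRNA share, -3.71 percentage points, was 2.85 without Vehicle-sham 2 and 3 (exact permutation test, p = 0.107) and between -6.07 and -0.207 when 1 library was left out. Of 3150 fold changes of 158 named genes under other settings, 2945 had the same direction and side of the threshold, 165 passed it and 40 changed sign. The 40 belonged to 9 genes. Log2 fold changes of Apoe were 0.18 with voom, 0.015 with no filter, 0.16 without Vehicle-CCI 4 and Vehicle-sham 2, 0.061 without Vehicle-sham 2 and 3 and -0.13 to 0.21 when 1 library was left out. Those of Gad1 were 0.015 with voom and 0.10 without Vehicle-sham 2 and 3. Lyve1 had -0.011 within the 2 groups, -0.0046 with the replicate block, -0.0018 with DESeq2's size factors and -0.18 to 0.41 when 1 library was left out. Mrc1 had -0.0024 to 0.31 when 1 library was left out. S100a8 had 0.57 with voom, 0.70 with the covariate, 0.84 without Vehicle-CCI 4 and Vehicle-sham 2, 0.91 without Vehicle-sham 2 and 3 and -1.48 to 0.64 when 1 library was left out. S100a9 had 0.31, 0.57, 0.55 and 0.73 in those 4 settings and -0.87 to 0.54 when 1 library was left out. Slc17a6 had 0.15 without Vehicle-sham 2 and 3. Tmem119 had -0.13 with voom, -0.10 with the covariate, -0.044 without Vehicle-CCI 4 and Vehicle-sham 2, -0.14 without Vehicle-sham 2 and 3 and -0.11 to 0.19 when 1 library was left out. Ttr had -0.12 with voom and -2.61 to 3.77 when 1 library was left out. Of 960 list medians under other settings, 26 moved by more than the spread between libraries. The causes were not tested.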
